A study of Mus musculus with 8 samples.

Results

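The 61 mouse genes of 3 protease and inhibitor families were followed through 4 models of endometrial cancer (EC): the kallikreins (Klk), the clade B serpins (Serpinb) and the Tmprss11 proteases. They were taken as every gene symbol of the count table that begins with Klk, Serpinb or Tmprss11, with Klkb1 (plasma kallikrein, a liver protease of another family) left out, and they make up 61 of the 24419 symbols. The kallikreins were 12 genes from Klk4 to Klk15 and 15 genes of the Klk1 group (Klk1 and the Klk1b genes). There were also 7 Tmprss11 proteases and 27 clade B serpins. Of the serpins, 12 lie on chromosome 1 and 15, the Serpinb1, Serpinb6 and Serpinb9 genes, on chromosome 13. The models were TPM, TPMCa, TPMR1 and TPK, each with 2 libraries of polyA RNA from separate mice. All grew from uterus organoids of female CAG-Cas9-EGFP mice aged 8 to 10 weeks, in which Cas9 is driven by a ubiquitous promoter, and in all 4 the edits included an sgRNA against Trp53. TPM also overexpressed Myc, TPMCa was TPM with a mutant Pik3ca cDNA, TPMR1 was TPM with an sgRNA against Pik3r1, and TPK carried no introduced Myc. The edited organoid cells were placed in the uterus of female BALB/cA-nu nude mice aged 8 weeks, which lack mature T cells but keep innate immune cells. The methods describe tumor tissue taken about 2 months later, whereas the labels describe organoids of these tumors.

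Squamous epithelia such as epidermis and esophagus shed their outer cells in a controlled way. Kallikreins are secreted serine proteases that cut the corneodesmosome proteins holding those cells together and activate one another in a cascade, and several also cut the receptor PAR2. Tmprss11 proteases are anchored in the plasma membrane of such surface epithelia and cut proteins outside the cell. Clade B serpins stay mostly inside the cell and trap serine or cysteine proteases, which protects the cell from its own granule and lysosomal enzymes and from those of leukocytes. In the mouse, the Klk1b genes are a rodent expansion of Klk1, known mainly from salivary gland, kidney and gonads.

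The 8 libraries held from 15748396 to 26943611 counts, the most in TPMR1 replicate 1. Levels are given as CPM, counts scaled to library size with the TMM factors of edgeR. The detection floor was set at 3 counts, or 0.116 to 0.198 CPM depending on the library, and covers counting error only. The 6 general epithelial markers Epcam, Cdh1, Krt7, Krt8, Krt18 and Krt19 summed to 2941 to 5498 CPM in TPM and TPK but to 6.47 to 73.3 CPM in TPMCa and TPMR1, so that the markers of the labeled epithelial tumor were close to absent in those libraries. The 8 squamous markers Krt5, Krt14, Trp63, Dsg3, Krt1, Krt10, Ivl and Krt13 summed to 3307 to 22882 CPM in TPM and TPK and to 3.45 to 13.2 CPM in TPMCa and TPMR1. The 6 fibroblast markers, in contrast, summed to 876 CPM or more in every library. In bulk tissue, fewer cells of a type and less RNA per cell cannot be told apart. The 6 uterine epithelial markers summed to 317 to 3156 CPM in TPM and TPK and to 26.3 to 173 CPM in the others. Most of the sum in TPM and TPK was Wfdc2, at 423 and 228 CPM in TPM and 1924 and 2917 CPM in TPK. Pax8 and Foxa2 were also higher there, whereas Esr1, Pgr and Msx1 overlapped between the models. Esr1 was at 142 and 133 CPM in TPMR1, against 30.1 and 51.0 CPM in TPM and 81.7 and 149 CPM in TPK. The 4 endothelial markers summed to 49.2 to 617 CPM over all libraries, and 7 T and NK cell markers to 30.1 CPM or less. Replicate 1 of TPMR1 stood apart: of the genes at 10 CPM or more in either TPMR1 library, 14.9% differed over 4-fold between them, against 3.15 to 5.32% in the other models. Results that rest on replicate 1 of TPMR1 are given with and without it. Each difference was tested with the quasi-likelihood F test of edgeR across 15875 genes, and a gene is called higher or lower at an adjusted p under 0.05.

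On GRCm38 (mm10), the 61 genes lie in 4 clusters. The 27 kallikreins lie on one strand of chr7:43690418-44229618, with the 12 genes from Klk14 to Klk15 first and the Klk1b genes and Klk1 after them. The 12 serpins of chromosome 1 lie in chr1:106861173-107610484, from Serpinb5 to Serpinb8. The 15 serpins of chromosome 13 lie in chr13:32842092-34002794, and the 7 Tmprss11 genes on one strand of chr5:86231481-86745815. GENCODE lists 59 of the 61 as protein coding, Klk1b7-ps as a pseudogene and Serpinb10 as a polymorphic pseudogene. No transcript stretch of 100 bases was shared among the kallikreins from Klk4 to Klk15 or among the Tmprss11 genes. In the Klk1 group, 11 of 15 genes shared such stretches with another member, up to 5.26% of their stretches. On chromosome 13 they were shared by 4 genes, up to 23.6% for Serpinb9f, and on chromosome 1 by 4 genes, up to 7.52% for Serpinb2, which overlaps Serpinb10 on the same strand. The counts of these genes may take up reads of their neighbors and are uncertain to that extent.

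TPM and TPK held most of the families' RNA. The 7 Tmprss11 genes together were at 608 and 142 CPM in the TPM libraries and at 525 and 400.2 CPM in the TPK libraries, but at 0.334 CPM or less in each of the 4 TPMCa and TPMR1 libraries. The 12 kallikreins from Klk4 to Klk15 together were at 721 and 604 CPM in TPM and at 267 and 15.2 CPM in TPK, against 1.51 to 7.95 CPM in TPMCa and TPMR1. The 12 serpins of chromosome 1 together were at 807 and 188 CPM in TPM and at 506 and 661 CPM in TPK, against 1.12 to 20.5 CPM. The serpins of chromosome 13 departed from this pattern, with sums of 99.7 to 374 CPM over the 8 libraries. The Klk1 group departed the other way, with its highest sum, 1128 CPM, in replicate 1 of TPMR1 and 1.67 CPM in replicate 2.

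**Figure D1:**
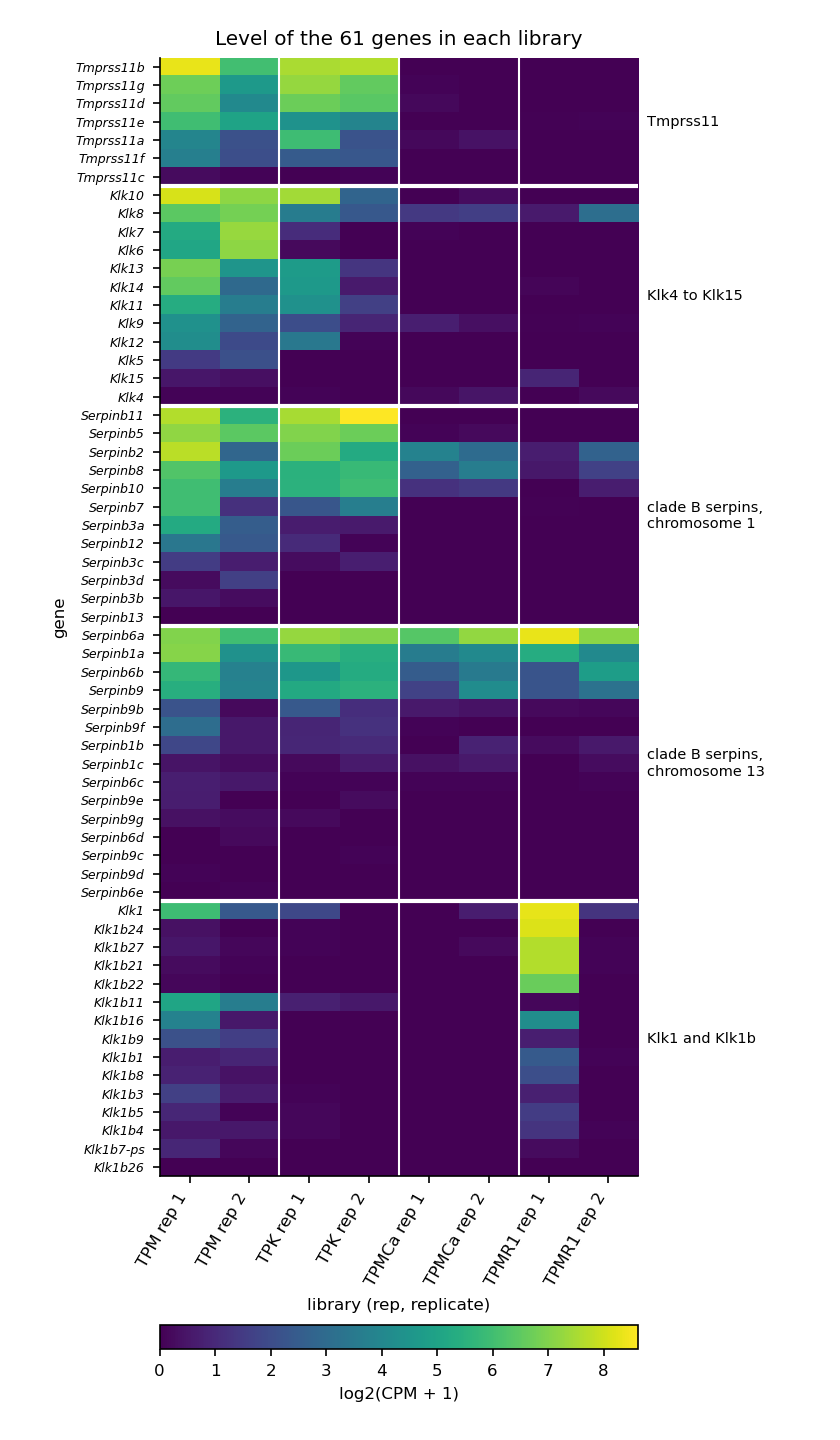
Heat map of log2(CPM + 1) for the 61 genes (rows, in 5 groups, ordered by mean level within each) in the 8 libraries (columns). The upper 3 groups are bright in the TPM and TPK columns and dark in the TPMCa and TPMR1 columns, the Serpinb6a row is bright throughout, and the Klk1 group is brightest in replicate 1 of TPMR1.

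The study's methods set TPM and TPK each against the pooled TPMCa and TPMR1, the models with an added PI3K alteration (here the PI3K models). Of the 61 genes, 40 had enough counts to be tested. A gene abundant in 1 model passes that filter through this model, so the tested genes are not a sample of the families. In TPM, 25 of the 40 were higher than the mean of TPMCa and TPMR1 and 0 were lower, where 7.44% of all genes tested were higher and 1.45% lower. In TPK, 17 were higher and 0 lower, where 10.3% of all genes were higher and 4.06% lower. These 17 genes were all among the 25, and both comparisons use the same TPMCa and TPMR1 libraries. The looser criteria of the study, which used DESeq2, were p under 0.05 without adjustment and log2 fold changes past 1 in size. Applied here to the edgeR fit, these passed 31 and 26 members, all higher, where 20% and 25.2% of all genes passed in either direction. With no filter on low counts, 59 of the 61 entered the fit, and 26 and 20 were called, where 7.34% and 11% of all genes were. The median log2 fold change of the 40 was 5.80 in TPM and 3.74 in TPK with genes at 0 counts in a group set to their bound, or 7.85 and 4.96 as fitted, against -0.02 and -0.00 over all genes. The 6 general epithelial markers had medians of 7.15 and 7.70 and the 8 squamous markers of 12.75 and 10.85, and their part in the result was not tested.

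Single libraries mattered to these counts and to the calls over all genes. In both comparisons, the share of all genes called fell without any library of TPM, TPK or TPMCa. It rose without either library of TPMR1. For TPM, the 25 calls fell to 9 without replicate 1 of TPM and to 11 without either library of TPMCa, and the other libraries left 18 to 23. For TPK, the 17 calls fell to 7 without replicate 1 and to 10 without replicate 2 of TPK, to 7 and 9 without replicates 1 and 2 of TPMCa, and stayed at 13 to 16 otherwise. Without replicate 2 of TPMR1, 15 members were called higher in TPK and 1, Klk1b27, lower (adjusted p = 0.0199 from edgeR), a gene at 1 count in TPK whose level elsewhere rests on replicate 1 of TPMR1. Without replicate 1 of TPMR1, the counts were 22 and 14. The genes whose calls in both comparisons held under all 17 alternative fits and omissions of a library, the Holm adjustment apart, were Serpinb5, Serpinb11, Tmprss11b, Tmprss11d, Tmprss11e and Tmprss11g, and for TPM also Klk6 and Klk1b11.

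The Tmprss11 proteases gave the most complete difference. All 6 that could be tested were higher in both TPM and TPK, and the 7th, Tmprss11c, was at 3 counts or fewer in every library. Promoters are shown for Tmprss11b and Tmprss11g because these genes were abundant in both models and at 0 or 1 count in TPMCa and TPMR1. Each is the 300 bases from RefSeq (GRCm38.p6) that run from 250 before to 50 after the annotated start, written 5′ to 3′ on the gene's strand. Capitals mark 2 patterns searched on both strands, AACNNGTT of the grainyhead-like factors and the p53 family motif. The p53 family motif searched here is 1 of the 2 parts of a full site, so a marked stretch is not by itself a full p53 family site. The patterns overlap in both genes, and Tmprss11b holds a further p53 family motif upstream.
Tmprss11b, chr5:86676249-86676548, minus strand: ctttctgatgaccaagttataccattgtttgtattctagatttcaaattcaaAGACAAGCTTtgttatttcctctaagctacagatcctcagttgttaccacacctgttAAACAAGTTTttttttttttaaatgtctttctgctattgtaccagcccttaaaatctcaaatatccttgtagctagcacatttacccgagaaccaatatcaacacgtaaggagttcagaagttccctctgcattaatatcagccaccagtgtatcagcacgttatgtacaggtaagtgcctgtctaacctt
Tmprss11g, chr5:86518551-86518850, minus strand: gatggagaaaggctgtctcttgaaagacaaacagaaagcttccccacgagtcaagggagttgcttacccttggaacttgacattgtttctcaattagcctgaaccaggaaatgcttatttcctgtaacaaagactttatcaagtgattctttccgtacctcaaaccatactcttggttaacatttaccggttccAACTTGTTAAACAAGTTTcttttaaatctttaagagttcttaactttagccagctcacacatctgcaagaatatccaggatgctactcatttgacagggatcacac
Tmprss11b was at 322 and 63.4 CPM in TPM and at 184 and 199 CPM in TPK, with 0 counts in all 4 TPMCa and TPMR1 libraries. Measured against the floor of 3 counts per library, it was at least 1206-fold higher in TPM (adjusted p = 0.00500 from edgeR) and at least 1199-fold higher in TPK (adjusted p = 0.00415). The TPK replicates of this gene lay close together, whereas the TPM replicates were 5.09-fold apart. Tmprss11g was at 105 and 24.6 CPM in TPM and at 154 and 94.1 CPM in TPK, with 1 count in the 4 other libraries together. Against that count the ratio of pooled levels was 4933 (95% counting interval 884 to 194941) for TPM and 9796 (1757 to 387009) for TPK, with adjusted p = 0.00287 and 0.00219 from edgeR.

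Tmprss11d, the counterpart of human airway trypsin-like protease, was at 92.3 and 16.2 CPM in TPM and at 101.3 and 85.4 CPM in TPK, with 2 counts in replicate 1 of TPMCa and 0 elsewhere. Its pooled levels stood at 2066 times (571 to 17074) and 3642 times (1007 to 30084) those of TPMCa and TPMR1, with adjusted p = 0.00499 and 0.00351 from edgeR. Tmprss11e, first described as DESC1, differed in being higher in both TPM libraries, 62.5 and 31.1 CPM, than in both TPK libraries, 20.002 and 13.8 CPM. It had 1 count in each TPMR1 library and 0 in TPMCa, and its replicates lay within 2.01-fold of each other. It had the smallest adjusted p values of the family, 0.00110 for TPM and 0.00113 for TPK (edgeR). Tmprss11f, a protease of the skin barrier, was lower in level at 12.3 and 3.20 CPM in TPM and 4.51 and 4.02 CPM in TPK, with 0 counts in the other models. It was at least 48.6-fold and 26.7-fold higher (adjusted p = 0.0109 and 0.0116 from edgeR). In Tmprss11a, known from esophageal epithelium, 1 library dominated. It was at 60.6 CPM in replicate 1 of TPK, and at 3.63, 14.1 and 3.37 CPM in the other TPK library and the TPM libraries. Its log2 fold change was 9.62 in TPK (standard error 1.55, adjusted p = 0.0161 from edgeR) and 7.75 in TPM (standard error 1.52, adjusted p = 0.0363). The call of Tmprss11a was lost without replicate 1 of TPK for TPK, without either TPM library or replicate 1 of TPMR1 for TPM, and without either TPMCa library for both, at edgeR adjusted p values up to 0.0820 in TPK and 0.175 in TPM. Its call in TPM was also lost with TPMCa and TPMR1 fitted as 1 group. That of Tmprss11f was lost in TPM without replicate 1 of TPM (adjusted p = 0.0612 from edgeR) and in TPK without either TPK library (up to 0.0721).

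Among the serpins of chromosome 1, 8 of 9 tested genes were higher in TPM and 5 of 9 in TPK. Promoters are given for Serpinb5 and Serpinb11, which stood out in both models, and for Serpinb8, which was detected in every library. Capitals mark TGANTCA, the loose form of the AP-1 site, of which TGAGTCA is the strict form.
Serpinb5, chr1:106860925-106861224, plus strand: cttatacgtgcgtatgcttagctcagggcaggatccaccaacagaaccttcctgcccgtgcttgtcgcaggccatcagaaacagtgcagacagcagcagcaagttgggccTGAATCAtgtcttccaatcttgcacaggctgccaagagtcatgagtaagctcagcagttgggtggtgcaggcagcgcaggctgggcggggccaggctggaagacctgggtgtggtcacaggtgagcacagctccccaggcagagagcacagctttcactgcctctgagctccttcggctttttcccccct
Serpinb11, chr1:107362064-107362363, plus strand: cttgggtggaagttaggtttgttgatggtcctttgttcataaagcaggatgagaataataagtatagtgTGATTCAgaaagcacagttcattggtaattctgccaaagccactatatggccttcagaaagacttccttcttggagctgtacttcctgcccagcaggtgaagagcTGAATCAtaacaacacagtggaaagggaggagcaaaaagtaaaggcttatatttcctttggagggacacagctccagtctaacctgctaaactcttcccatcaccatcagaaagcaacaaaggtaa
Serpinb8, chr1:107589756-107590055, plus strand: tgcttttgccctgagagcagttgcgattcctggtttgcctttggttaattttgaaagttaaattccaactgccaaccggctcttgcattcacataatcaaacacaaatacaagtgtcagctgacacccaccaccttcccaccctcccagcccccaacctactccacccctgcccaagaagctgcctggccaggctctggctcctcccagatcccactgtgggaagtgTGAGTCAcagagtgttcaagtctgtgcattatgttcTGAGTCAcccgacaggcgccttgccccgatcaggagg
Serpinb5 encodes maspin, a serpin of epithelial and myoepithelial cells that does not inhibit proteases. It was at 144 and 86.8 CPM in TPM and at 127 and 101.06 CPM in TPK, against 0.0633 and 0.167 CPM in TPMCa and 0 counts in TPMR1. The groups were far apart relative to the replicates, and the log2 fold changes were 11.94 in TPM and 11.92 in TPK, each with a standard error of 0.50 (adjusted p = 0.000598 and 0.000507 from edgeR). These were the smallest adjusted p values among the 40 members tested in both comparisons. Serpinb11, or epipin, was at 198 and 45.8 CPM in TPM and at 181 and 394 CPM in TPK, with 0 counts in all TPMCa and TPMR1 libraries. It was at least 762-fold higher in TPM and at least 1797-fold higher in TPK (adjusted p = 0.00590 and 0.00412 from edgeR). Per exon length it was the most abundant of the 61 genes in TPK, at 132 CPM per kb on average.

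Serpinb8, an inhibitor of trypsin-like proteases and furin, kept a measurable level in the PI3K models. It was at 77.2 and 24.1 CPM in TPM and 44.8 and 54.6 CPM in TPK, against 5.45 and 11.6 CPM in TPMCa and 0.465 and 2.17 CPM in TPMR1. The log2 fold change was 3.93 in TPM and 3.90 in TPK, each with a standard error of 0.69 (adjusted p = 0.0185 and 0.0154 from edgeR). Serpinb10 (bomapin, known from myeloid cells) was at 62.9 and 11.7 CPM in TPM and 45.9 and 60.4 CPM in TPK, against 1.33 and 1.67 CPM in TPMCa and 0 and 0.611 CPM in TPMR1. It was 5.82 higher in TPM and 6.33 higher in TPK on the log2 scale (adjusted p = 0.0203 and 0.0130 from edgeR). Serpinb7 (megsin, a gene of a palmoplantar keratosis) spanned 62.7 to 1.32 CPM between the TPM replicates, a 47.6-fold gap, and was at 4.0005 and 11.9 CPM in TPK and at 1 count over TPMCa and TPMR1. The ratio of pooled levels was 2421 (434 to 95717) for TPM and 594 (106 to 23542) for TPK. Its calls (adjusted p = 0.0252 and 0.0332 from edgeR) were among the least stable, being lost under 9 of 17 alternatives in TPM and 7 of 17 in TPK.

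Serpinb3a and Serpinb3c, mouse counterparts of the squamous cell carcinoma antigens that inhibit cathepsins, and Serpinb12 passed the threshold in TPM only. Serpinb3a was at 37.9 and 4.80 CPM in TPM, at 0.571 and 0.527 CPM in TPK and at 0 counts elsewhere, at least 134-fold higher in TPM (adjusted p = 0.0137 from edgeR) and at least 3.43-fold higher in TPK (adjusted p = 0.0556). Serpinb12 was at 9.75 and 4.29 CPM in TPM, at 1.03 and 0.0659 CPM in TPK and at 0 counts elsewhere (adjusted p = 0.0280 and 0.0686 from edgeR). Serpinb3c was low throughout, at 1.93 and 0.629 CPM in TPM and at 0.229 and 0.659 CPM in TPK (adjusted p = 0.0386 and 0.0533 from edgeR). Serpinb2, or PAI-2, the inhibitor of urokinase, did not pass: it was at 212 and 6.23 CPM in TPM and 102 and 37.6 CPM in TPK, and its TPM range overlapped the 13.2 and 7.07 CPM of TPMCa (adjusted p = 0.0941 for TPM and 0.101 for TPK from edgeR). Serpinb3b and Serpinb3d had no counts outside TPM, where the highest level was 2.12 CPM for Serpinb3d, and Serpinb13 had 0 counts in every library. Without replicate 1 of TPM, the calls of Serpinb3a, Serpinb3c, Serpinb7, Serpinb8, Serpinb10 and Serpinb12 in TPM were lost, and those of all of these but Serpinb3a were also lost without either TPMCa library. The calls of Serpinb3c, Serpinb7 and Serpinb10 were further lost without either TPK library, those of Serpinb3c and Serpinb12 without replicate 2 of TPM, that of Serpinb3c without replicate 1 of TPMR1 and that of Serpinb7 without either TPMR1 library, with edgeR adjusted p values up to 0.245. In TPK, the calls of Serpinb7, Serpinb8 and Serpinb10 were lost without either TPK library and without replicate 1 of TPMCa, those of Serpinb7 and Serpinb10 also without replicate 2 of TPMCa and that of Serpinb7 without either TPMR1 library, with adjusted p up to 0.160. With TPMCa and TPMR1 fitted as 1 group, Serpinb8 was not called in TPM or in TPK, and with only the compared models fitted, Serpinb3a, Serpinb3c, Serpinb7, Serpinb8 and Serpinb10 were not called in TPM.

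Most kallikreins from Klk4 to Klk15 were higher in TPM than in the PI3K models, and fewer were in TPK. In TPM, 9 of the 10 tested were higher than the mean of TPMCa and TPMR1 and in TPK 5 of 10, and the medians of their log2 fold changes with bounds were 8.02 and 5.09. The promoters of Klk10 and Klk6 are shown because the first gene was abundant in TPM and in 1 TPK library and the second in TPM alone. Capitals in the Klk10 sequence mark a p53 family motif, again only part of a full site. The Klk6 sequence holds none of the patterns searched.
Klk10, chr7:43780804-43781103, plus strand: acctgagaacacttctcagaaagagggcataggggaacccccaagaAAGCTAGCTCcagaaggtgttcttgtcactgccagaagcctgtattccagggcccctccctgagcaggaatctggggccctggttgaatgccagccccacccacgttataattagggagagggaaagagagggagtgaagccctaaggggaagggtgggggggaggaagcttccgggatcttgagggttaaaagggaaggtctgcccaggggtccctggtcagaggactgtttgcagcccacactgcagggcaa
Klk6, chr7:43824294-43824593, plus strand: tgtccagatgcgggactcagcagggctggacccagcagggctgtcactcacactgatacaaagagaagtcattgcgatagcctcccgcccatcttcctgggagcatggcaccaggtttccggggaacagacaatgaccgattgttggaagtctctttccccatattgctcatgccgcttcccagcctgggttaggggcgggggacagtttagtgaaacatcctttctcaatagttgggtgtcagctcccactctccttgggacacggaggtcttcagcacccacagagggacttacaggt
Klk10 was at 276 and 143 CPM in TPM and at 173 and 5.93 CPM in TPK, with 4 counts in replicate 2 of TPMCa and 0 in the other 3 libraries. Its log2 fold change was 12.80 in TPM (standard error 1.83, adjusted p = 0.0136 from edgeR) and 11.58 in TPK (standard error 1.80, adjusted p = 0.0144). Per exon length it was the most abundant member in TPM, at 152 CPM per kb on average. Its TPK replicates differed 29.2-fold.

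Klk13 was at 114 and 21.8 CPM in TPM and at 25.4 and 1.52 CPM in TPK, and Klk11 at 39.3 and 11.5 CPM in TPM and 19.4 and 2.11 CPM in TPK, both with 0 counts in TPMCa and TPMR1. Klk13 was at least 425-fold higher in TPM and 84.2-fold in TPK (adjusted p = 0.0259 and 0.0325 from edgeR), and Klk11 at least 159-fold and 67.2-fold (adjusted p = 0.0197 and 0.0204). Klk14, a trypsin-like protease that activates other kallikreins in epidermis, was at 93.4 and 6.81 CPM in TPM and at 23.5 and 0.527 CPM in TPK, with 2 counts in replicate 1 of TPMR1. The ratio of pooled levels was 1900.02 (525 to 15702) for TPM and 499 (137 to 4131) for TPK (adjusted p = 0.0363 and 0.0443 from edgeR). Klk9 was at 19.7 and 5.78 CPM in TPM and at 3.09 and 0.857 CPM in TPK, against 0.0387 to 0.633 CPM in the other models. It was 6.35 higher in TPM and 3.67 higher in TPK on the log2 scale (adjusted p = 0.00780 and 0.0326 from edgeR). Klk12 followed its neighbors, at 17.6 and 2.80 CPM in TPM, 9.89 and 0.0659 CPM in TPK and 0 counts elsewhere, without passing the threshold (adjusted p = 0.0771 and 0.0716 from edgeR). In all 6 of these genes from Klk9 to Klk14, replicate 1 was higher than replicate 2 in both TPM and TPK.

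Klk5, Klk6, Klk7 and Klk8 went the other way in the TPM replicates, with the higher level in replicate 2, and were low in TPK. Klk6 (neurosin) was at 33.1 and 141 CPM in TPM, with 3 counts in replicate 1 of TPK and 0 in the other 5 libraries. Klk7, the chymotrypsin-like enzyme of the stratum corneum, was at 38.1 and 157 CPM in TPM, at 1.14 CPM and 0 counts in TPK, and at 1 count over TPMCa and TPMR1. Klk6 was at least 544-fold higher in TPM than the floor of the PI3K models (adjusted p = 0.00822 from edgeR), and Klk7 had a ratio of pooled levels of 7687 (1379 to 303691, adjusted p = 0.0102). Klk8 (neuropsin) had the closest TPM replicates, 87.4 and 111 CPM, with 11.4 and 4.15 CPM in TPK, 1.71 and 2.003 CPM in TPMCa and 0.542 and 7.73 CPM in TPMR1. It was 5.17 higher in TPM on the log2 scale (standard error 0.91, adjusted p = 0.0184 from edgeR), and its TPK libraries overlapped TPMR1. Klk5, the starter of the epidermal cascade, was low even in TPM at 1.75 and 3.26 CPM and had 0 counts in the other 6 libraries, at least 15.6-fold higher in TPM (adjusted p = 0.0368 from edgeR). Klk4, the enamel kallikrein, and Klk15 were at 7 and 22 counts or fewer in every library and were not tested. Without replicate 1 of TPM, the calls of Klk5, Klk8, Klk9, Klk10, Klk11, Klk13 and Klk14 in TPM were lost. The calls of Klk5, Klk7, Klk8, Klk10, Klk11, Klk13 and Klk14 were lost without either TPMCa library, and those of Klk5, Klk7, Klk8, Klk11, Klk13 and Klk14 without replicate 2 of TPM, with edgeR adjusted p up to 0.231 over all alternatives. Klk5 also lost its call without either TPK library and under DESeq2, and Klk14 without either TPMR1 library. In TPK, the calls of Klk11, Klk13, Klk14 and Klk9 were lost without replicate 1 of TPK, those of Klk9 and Klk14 also without replicate 2, and those of Klk9, Klk10, Klk11, Klk13 and Klk14 without either TPMCa library (edgeR adjusted p up to 0.270). Klk13 and Klk14 lost theirs without either TPM library and Klk9 without replicate 1 of TPM, and Klk9 and Klk14 without either TPMR1 library. With only the compared models fitted, Klk9 and Klk13 were not called in TPK, nor was Klk9 with TPMCa and TPMR1 as 1 group.

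**Figure D2:**
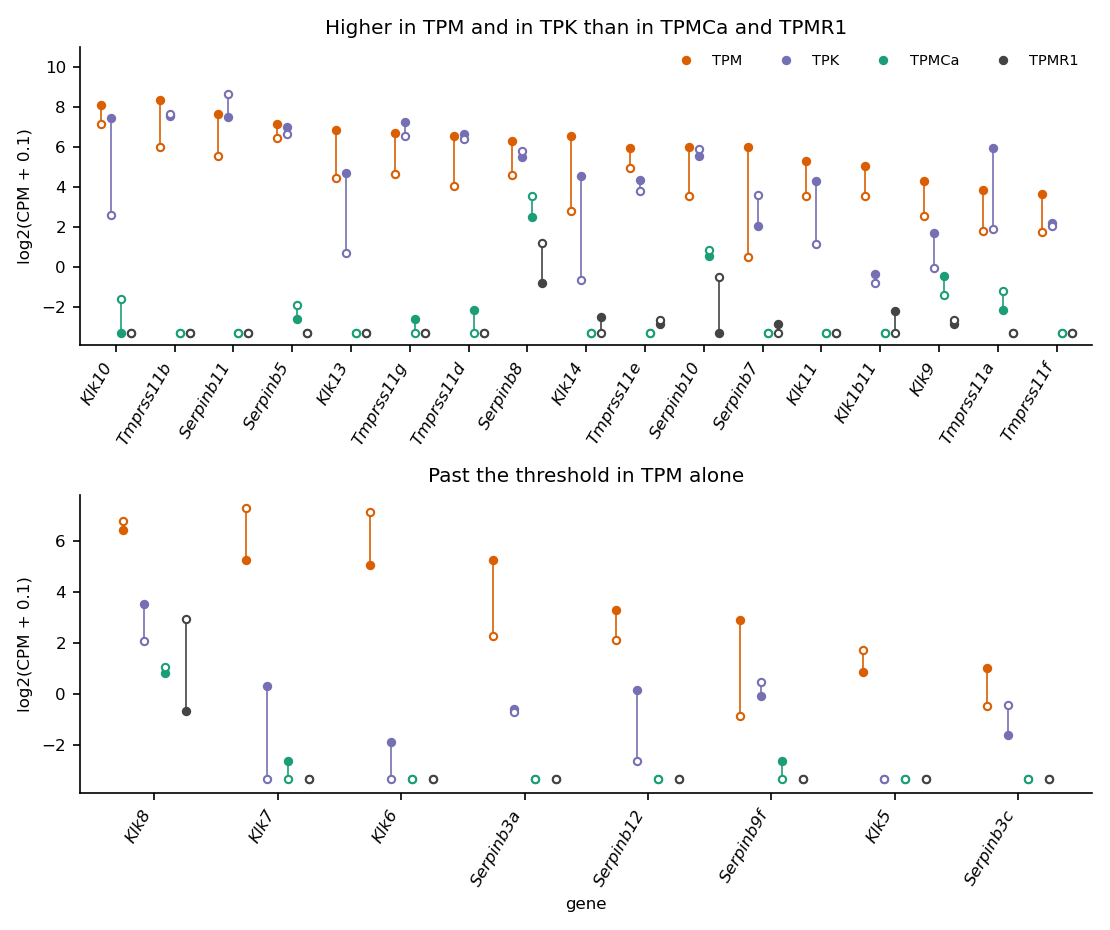
Level of the called genes in each library as log2(CPM + 0.1), by model, with filled points for replicate 1, open points for replicate 2 and a line joining them; points at the bottom are 0 counts. The 17 genes of the upper panel lie higher in TPM and TPK than in TPMCa and TPMR1, and among the 8 of the lower panel Klk6 reaches 141 CPM in TPM but only 0.171 CPM in TPK.

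Replicates of TPM differed more in these families than in the transcriptome. Of the 29 members at 10 CPM or more in either TPM library, 18 differed over 4-fold between the replicates, 16 of them higher in replicate 1, where 3.15% of all genes at that level did so. In TPK it was 5 of 20, all higher in replicate 1, against 3.53% of all genes. The squamous markers moved with this: they summed to 18585 CPM in replicate 1 and 3307 CPM in replicate 2 of TPM, and Krt10, a keratin of the suprabasal layers, was at 2942 and 27.7 CPM. Mast cell markers were also higher in replicate 1 of TPM, at 113 CPM against 0.801 CPM. Their part in the result was not tested.

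Whether TPK and TPM differed was tested directly, a contrast the study did not make. In edgeR, 0 of the 40 tested members and 0 of all genes passed the threshold in either direction (0% higher and 0% lower), with 1138 of 15875 genes at an unadjusted p under 0.05. At the study's thresholds, 10 members passed, all lower in TPK, where 5.28% of all genes passed. The 10 were Klk5, Klk6, Klk7, Klk8, Klk9, Klk1b9, Klk1b11, Serpinb3a, Serpinb12 and Tmprss11e. Klk6, with 3 counts over both TPK libraries, had a TPK to TPM ratio of pooled levels of 0.00104 (0.000214 to 0.00304), at an unadjusted p of 0.00135 and an adjusted p of 0.653 from edgeR. Klk7 had a log2 fold change of -7.37 (standard error 1.64) and Klk8 of -3.67 (standard error 1.12), at adjusted p = 0.653 and 0.668 from edgeR. The DESeq2 test called 3 members lower in TPK, Klk1b11, Klk8 and Serpinb3a (adjusted p = 3.17e-05, 0.0324 and 0.00817), and 240 of all genes. The genes that passed the threshold against TPMCa and TPMR1 in TPM and not in TPK were therefore not shown by edgeR to differ between these models. In the other direction, Serpinb6a was the member whose TPK libraries, 152 and 130.1 CPM, both lay above both TPM libraries, 126 and 62.2 CPM, at a log2 difference of 0.59 (standard error 0.54, adjusted p = 0.844 from edgeR).

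**Figure D3:**
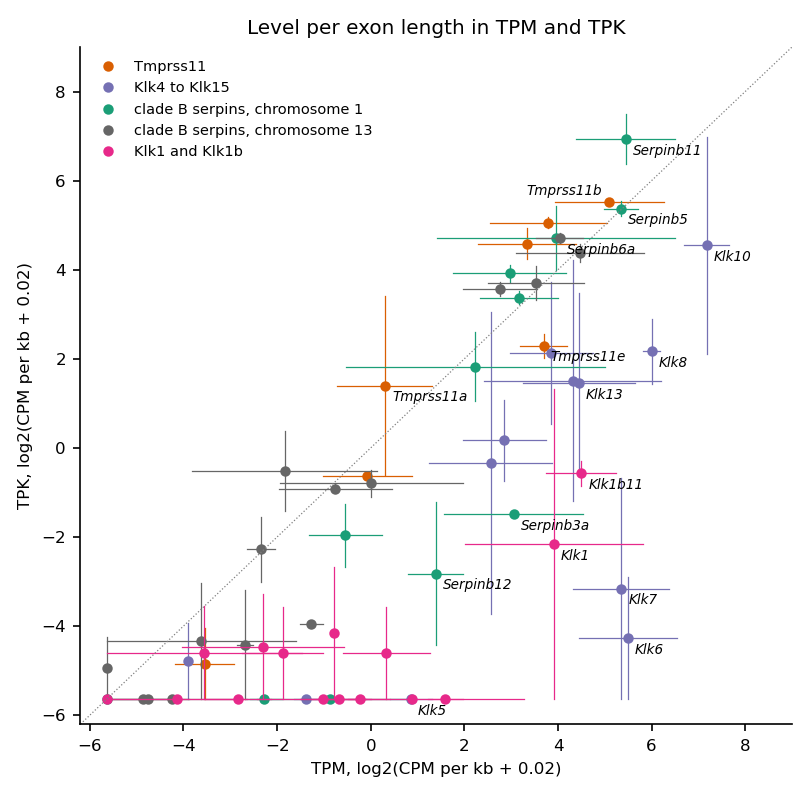
Mean of the log2 level of each of the 61 genes in TPM (x axis) and TPK (y axis) as log2(CPM per kb of exon + 0.02), with lines to the values of the 2 replicates, a dotted line of equal levels and colors for the 5 groups. Serpinb5 and Tmprss11b lie near the line of equal levels, Serpinb11 above it, and Klk6, Klk7, Klk1b11 and Serpinb3a below it.

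The low levels in TPMCa were set beside the epithelial RNA that remained there. Cdh1, the epithelial cadherin, had 110 and 96 counts in the TPMCa libraries against 13067 and 12203 in TPM, and 7 and 9 counts in TPMR1, too few for a ratio. Tmprss11b was between 0.0908 and 0.410 of the Cdh1 level in the TPM and TPK libraries and at 0 counts in TPMCa. Serpinb11 was between 0.0656 and 0.498 of it and at 0 counts in TPMCa, and Serpinb5 between 0.124 and 0.183 and at 0.00909 and 0.0313 in TPMCa. Serpinb8 was the opposite, at 0.782 and 2.18 of the Cdh1 level in TPMCa against at most 0.0981 in TPM and TPK. Serpinb10, at 0.191 and 0.3125 against at most 0.0800, and Klk9, at 0.0909 and 0.0521 against at most 0.0250, were likewise higher in TPMCa. Of the 17 genes higher in both models, 12 were lower per Cdh1 in both TPMCa libraries than in every TPM and TPK library. With so few Cdh1 counts, the floor of 3 counts equals 0.0313 of the Cdh1 level in replicate 2 of TPMCa. Klk11, Klk13, Klk14, Klk1b11, Serpinb7, Tmprss11d, Tmprss11e and Tmprss11f fell below that in a TPM or TPK library. For these genes, counts near 0 in TPMCa cannot show a lower ratio. Klk10, at 0 and 0.0417 in TPMCa against 0.00750 to 0.351, overlapped. So did Tmprss11a, at 0.0182 and 0.0625 against 0.00458 to 0.0788. These ratios are descriptions without a test.

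The serpins of chromosome 13 mostly guard cells against leukocyte proteases, and 4 of them were at 2.28 CPM or more in every library. Serpinb6a, an inhibitor of cathepsin G and trypsin-like enzymes, was at 126 and 62.2 CPM in TPM, 152 and 130.1 CPM in TPK, 80.4 and 150.3 CPM in TPMCa and 326 and 138 CPM in TPMR1. Its groups overlapped (adjusted p = 0.359 for TPM and 0.792 for TPK from edgeR), and per exon length it was the most abundant member in TPMCa, at 21.3 CPM per kb on average. Serpinb1a, which inhibits neutrophil elastase, cathepsin G and proteinase 3, was at 131 and 19.7 CPM in TPM and 54.7 and 41.2 CPM in TPK, against 11.4 to 39.6 CPM in TPMCa and TPMR1. The log2 differences were 1.94 for TPM and 1.29 for TPK and did not pass (adjusted p = 0.145 and 0.253 from edgeR). Serpinb9, the granzyme B inhibitor, was at 41.2 and 13.6 CPM in TPM and at 37.2 and 46.1 CPM in TPK, and the 4 other libraries lay between 2.28 and 17.3 CPM. Both TPK libraries were above all of these, and the differences of 1.82 and 2.43 on the log2 scale did not pass (adjusted p = 0.215 and 0.0882 from edgeR). Serpinb6b was at 53.04 and 12.9 CPM in TPM, at 22.5 and 38.5 CPM in TPK and between 3.76 and 27.01 CPM in TPMCa and TPMR1. Replicate 2 of TPMR1 lay within the range of TPM and of TPK (adjusted p = 0.293 and 0.268 from edgeR).

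Leukocyte markers varied beside these serpins. The 9 neutrophil markers summed to 2795 and 2286 CPM in TPM and 9185 and 7549 CPM in TPK, against 2629 and 320.3 CPM in TPMCa and 17.7 and 553 CPM in TPMR1, and most of the sum in TPM and TPK was Ltf, at 2278 and 1388 CPM in TPM and 8456 and 6827 CPM in TPK. Other markers of the list, S100a8, S100a9, Retnlg, Mmp8 and Ngp, were highest in replicate 1 of TPMCa, where S100a8 was at 825 CPM against 163 to 301 CPM in TPM and TPK. The 7 macrophage markers summed to 465 to 964 CPM in TPM, 1687 to 2908 CPM in TPK and 314 to 4612 CPM in the PI3K models, and their part in the levels of Serpinb1a, Serpinb6b, Serpinb9, Serpinb10 and Serpinb2 was not tested.

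Of the 7 tested genes on chromosome 13, only Serpinb9f was called, in TPM. It was at 7.47 and 0.458 CPM in TPM, at 0.857 and 1.32 CPM in TPK and at 1 count over TPMCa and TPMR1, a ratio of pooled levels of 300.4 (52.98 to 11952) for TPM (adjusted p = 0.0353 for TPM and 0.0544 for TPK from edgeR). It shares 23.6% of its 100-base stretches with other members, mainly Serpinb9g, and the call was lost without replicate 1 of TPM and without either library of TPMCa or TPK, with edgeR adjusted p up to 0.260 over the alternatives. Serpinb9b reached 4.29 CPM and Serpinb1b 2.59 CPM at most. The other 8 genes of this cluster, Serpinb1c, Serpinb6c, Serpinb6d, Serpinb6e, Serpinb9c, Serpinb9d, Serpinb9e and Serpinb9g, were not tested and were at 11 counts or fewer in every library.

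The 15 genes of the Klk1 group summed to 3.77 CPM or less in each TPK and TPMCa library, to 117 and 20.99 CPM in TPM and to 1128 CPM in 1 library of TPMR1. Klk1, the tissue kallikrein that releases kinins, was at 317 CPM in replicate 1 of TPMR1 and 1.45 CPM in replicate 2, at 60.5 and 4.35 CPM in TPM, at 2.69 CPM and 0 counts in TPK and at 0 counts and 0.612 CPM in TPMCa. Klk1b24 was at 288 CPM, Klk1b27 at 197 CPM, Klk1b21 at 195 CPM and Klk1b22 at 100.01 CPM in replicate 1 of TPMR1. In the other 7 libraries none of these 4 exceeded 0.421 CPM, and since they were abundant in 1 library alone, the filter left them untested. Klk1b21, Klk1b24 and Klk1b27 are known from testicular Leydig cells, which make steroids, and the other Klk1b genes mainly from salivary gland. Klk1b16 was at 17.9 CPM in that library and at 13.3 and 0.458 CPM in TPM, and the other Klk1b genes were at 4.41 CPM or less there. Klk1b26 had 0 counts in every library.

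The promoters of Klk1b24 and Klk1b21, which share this pattern, were the most alike of those compared with Klk1b24. They aligned over 265 columns with 259 identical bases (97.7%), and capitals mark the bases without an identical partner in that alignment.
Klk1b24, chr7:44187986-44188285, plus strand: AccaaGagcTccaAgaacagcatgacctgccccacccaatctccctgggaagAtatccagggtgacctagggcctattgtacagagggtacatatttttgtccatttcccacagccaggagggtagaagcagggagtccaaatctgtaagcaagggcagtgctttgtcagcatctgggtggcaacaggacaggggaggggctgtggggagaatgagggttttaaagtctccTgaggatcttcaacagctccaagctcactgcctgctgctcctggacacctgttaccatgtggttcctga
Klk1b21, chr7:44102042-44102341, plus strand: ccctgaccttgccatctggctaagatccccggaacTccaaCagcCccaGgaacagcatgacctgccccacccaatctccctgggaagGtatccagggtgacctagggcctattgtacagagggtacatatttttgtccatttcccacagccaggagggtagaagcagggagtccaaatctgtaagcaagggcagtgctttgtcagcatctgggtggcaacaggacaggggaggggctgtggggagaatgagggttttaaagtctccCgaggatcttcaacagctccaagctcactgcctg
Klk1b27 was 89.7% and Klk1b22 80.7% identical to Klk1b24 over the aligned columns. Klk1, also high in that library, was 78.7% identical to it. Klk1b26, at 0 counts, was 84.7% and Klk1b4, at 1.47 CPM in that library, 85.02% identical, both more than Klk1b22 and Klk1. Transcripts of Klk1b21 and Klk1b24, at 5046 and 7430 counts there, shared 20 of their 772 and 779 stretches of 100 bases.

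**Figure D4:**
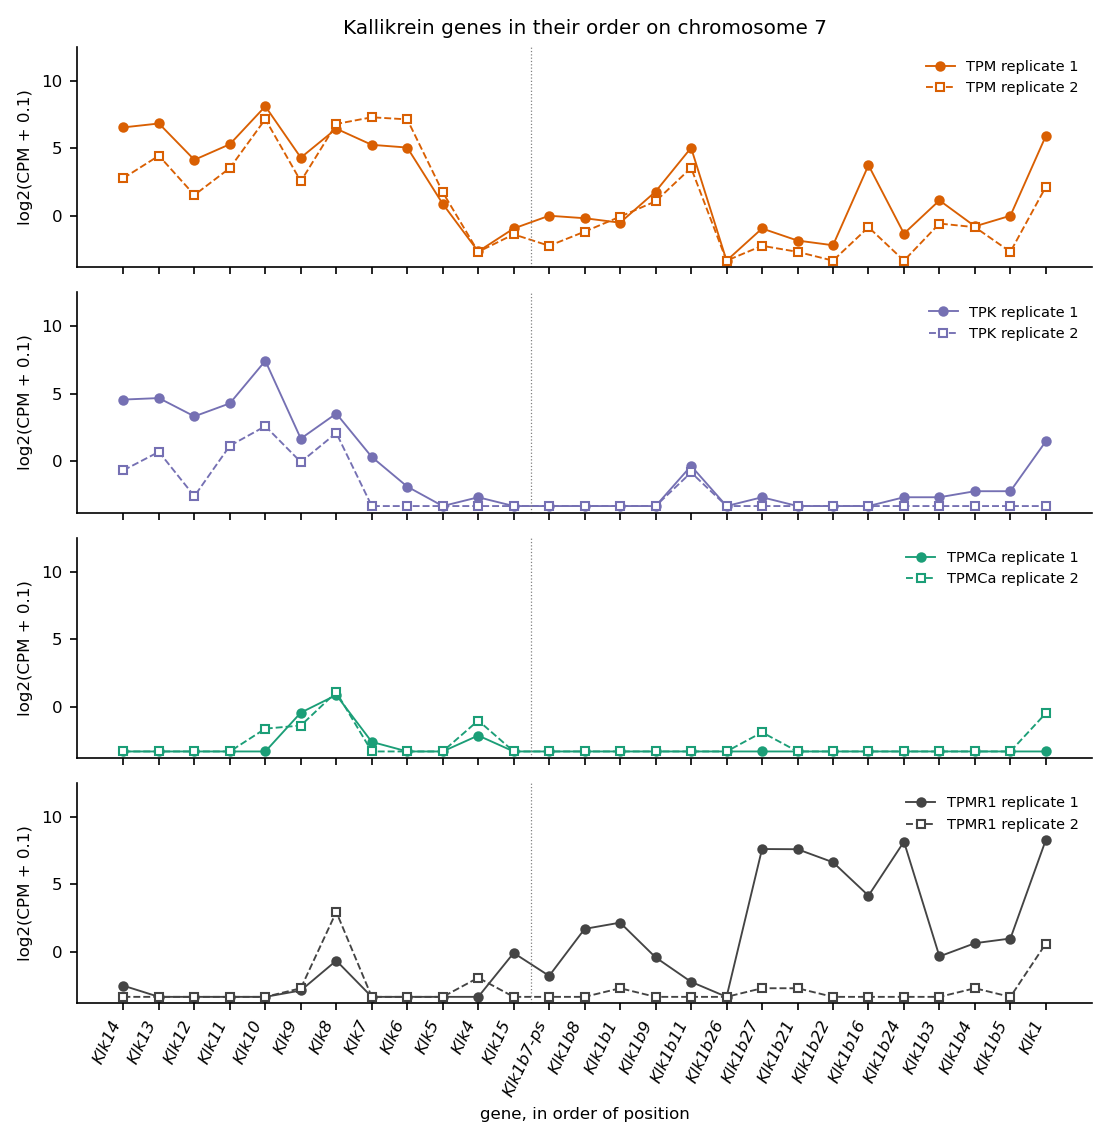
Level of the 27 kallikrein genes as log2(CPM + 0.1), in their order along chromosome 7, in the 2 replicates of each model (solid line with filled points, replicate 1; dashed line with open squares, replicate 2; dotted vertical line between Klk15 and Klk1b7-ps). In TPM and TPK the highest values lie left of the dotted line, Klk10 at 276 CPM in replicate 1 and Klk7 at 157 CPM in replicate 2 of TPM, and in replicate 1 of TPMR1 the high values run from Klk1b27 to Klk1b24 and return at Klk1, 317 CPM.

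In TPM, Klk1b11 was the only Klk1 group member called, at 32.7 and 11.6 CPM against 0.686 and 0.461 CPM in TPK, 3 counts in replicate 1 of TPMR1 and 0 elsewhere. The ratio of pooled levels was 566 (193 to 2750) for TPM and 15.04 (4.43 to 79.4) for TPK (adjusted p = 0.00622 and 0.0472 from edgeR). The TPK call, on 19 counts, was lost without either TPK library, without either TPM library, without either TPMCa library and with TPMCa and TPMR1 as 1 group (adjusted p up to 0.183). Klk1b9, an EGF-binding protein, was at 3.37 and 2.002 CPM in TPM and 0.658 CPM in replicate 1 of TPMR1, and Klk1b3, a subunit of the nerve growth factor complex, at 2.11 and 0.572 CPM in TPM and 0.697 CPM in that library, and neither passed in TPM (adjusted p = 0.115 and 0.164 from edgeR).

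Markers of other tissues moved with the Klk1 group in replicate 1 of TPMR1. The 6 markers of steroid-producing cells, Star, Cyp11a1, Cyp17a1, Hsd3b1, Insl3 and Nr5a1, summed to 5112 CPM there, to 447 CPM in replicate 2 of TPMR1 and to 8.49 to 24.5 CPM in the other 6 libraries. All 6 were detected in both TPMR1 libraries, and Cyp11a1, the first enzyme of steroid synthesis, was at 3768 and 182 CPM. The 5 salivary gland markers summed to 86.8 CPM in replicate 1 of TPMR1 and to 2.97 to 12.7 CPM in the rest, most of it the amylase gene Amy1 at 77.7 CPM, and the defining marker Smr3a was at 0 counts in every library. In replicate 2 of TPMR1, the steroid markers were thus above all libraries but one while the Klk1 group summed to 1.67 CPM. Their part in the Klk1 group levels was not tested.

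**Figure D5:**
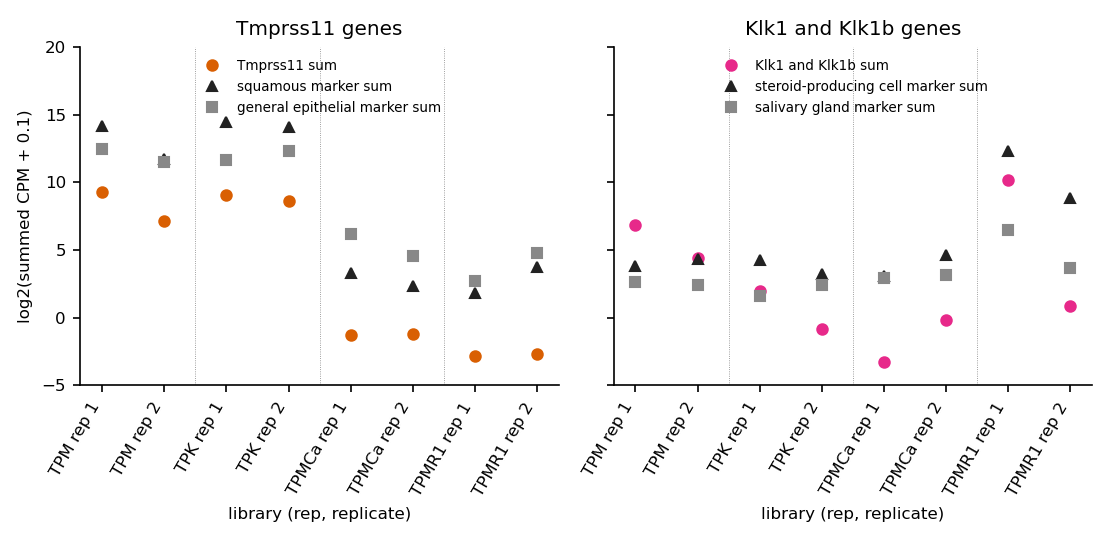
Summed levels per library as log2(summed CPM + 0.1). Left, the 7 Tmprss11 genes with the squamous and general epithelial marker lists, all high in TPM and TPK; right, the 15 genes of the Klk1 group with the steroid-producing cell and salivary gland lists, all highest in replicate 1 of TPMR1.

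Between TPMR1 and TPMCa, the 2 models with an added PI3K alteration, edgeR called 0 members and 0 of all genes (0% higher and 0% lower), with 1867 genes and 5 members at an unadjusted p under 0.05. By the study's criteria these 5 members passed, where 10.5% of all genes did: Klk1 and Klk1b1 were higher and Klk9, Serpinb5 and Serpinb8 lower in TPMR1. Klk1 had a log2 fold change of 8.94 with a standard error of 3.23 (adjusted p = 0.399 from edgeR). Leaving out replicate 2 of TPMR1 leaves replicate 1 alone to represent the model and assumes that the model varies like the other groups. In that fit, Klk1b1, Klk1b21, Klk1b22, Klk1b24 and Klk1b27 were higher, at log2 fold changes of 9.32 to 15.34. Many genes outside the families passed the threshold in it as well, so its calls are not particular to these members. With replicate 1 left out, 0 were called. DESeq2 called 1 member, Serpinb8, at a log2 fold change of -2.72 and an adjusted p of 0.0417, and 772 of all genes.

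Partners of these families in the epidermal protease network moved with them. Of 11 tested proteases upstream or beside the kallikreins, 7 were higher in TPM and the same 7 in TPK, namely St14 (matriptase), Prss8 (prostasin), Tmprss4, Tmprss13, Casp14, Prss27 and Prss22. St14 was at 379 and 389.8 CPM in TPM and 343 and 640.4 CPM in TPK against 0.232 to 6.12 CPM in the PI3K models (adjusted p = 0.00114 and 0.000970 from edgeR). Asprv1 and the lysosomal cathepsins Ctsc, Ctsd and Ctsl of the same list did not pass. Of 14 other inhibitors, 8 were higher in TPM and 7 in TPK. Among them, Spink5 encodes LEKTI, the inhibitor of Klk5, Klk7 and Klk14, and was at 629.9 and 175 CPM in TPM and 852 and 429 CPM in TPK against 1.27 CPM or less (adjusted p = 0.00784 and 0.00582 from edgeR). Spint1 and Spint2, inhibitors of matriptase, and Cst6, a cystatin, were higher in both as well.

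Of 10 tested substrates and receptors, 9 were higher in TPM and 7 in TPK. Cdsn, the corneodesmosin that kallikreins cut, was at 265 and 35.7 CPM in TPM and at 70.6 and 3.10 CPM in TPK, against 0.945 CPM or less in the PI3K models (adjusted p = 0.0158 and 0.0254 from edgeR). F2rl1, which encodes PAR2, was at 21.4 and 23.7 CPM in TPM and at 18.2 and 23.6 CPM in TPK, against 0.620 to 5.76 CPM (adjusted p = 0.0182 and 0.0161 from edgeR). The proteases that clade B serpins are known to trap differed from this. Of 8 tested, 0 were called in TPM and 1, Gzma, in TPK, and the median log2 fold changes were -0.19 and 0.90. Plau, the target of Serpinb2, was between 18.2 and 348 CPM in all libraries, and Ctsg and Elane, targets of Serpinb1a, were at 5.37 CPM or less in each and were not tested. The background shares for these counts are the 7.44% and 10.3% of all genes higher in TPM and TPK given above.

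Sequence patterns were counted over all 57 members with a RefSeq promoter and over 32851 promoters of 300 bases as a background, on both strands. TGANTCA stood in 9 of the 57 (15.8%) and 7.81% of all promoters, and its strict form TGAGTCA in 3 (5.26%) and 5.20%. AACNNGTT stood in 4 of the 57 (7.02%) and 4.20% of all, the p53 family motif in 6 (10.5%) and 8.36%, and TATAAA in 9 (15.8%) and 13.6%. The p53 family motif is the partial site described above, so its counts are not counts of full sites. Of the 16 promoters of genes higher in both TPM and TPK, 7 held TGANTCA, 4 held AACNNGTT and 6 held the p53 family motif. In Tmprss11a, Tmprss11b and Tmprss11g the last 2 patterns overlap. These genes were chosen by their levels and the patterns overlap in part, so the counts are a description and no test was made.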

How the data were processed

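RNA from tumors of 4 mouse models, 2 libraries each, was sequenced as paired-end polyA libraries. Per the methods and the labels, the authors aligned reads to mm10 with STAR and deposited whole-number counts per gene symbol. The counter, annotation and strand setting are not given in the sources used here, so genes that overlap or share sequence are uncertain, and the deposited normalized table was not used. The column headings call TPM "TPMS". Counts were tested with the quasi-likelihood F test of edgeR 4.0.16 (TMM, filterByExpr, limma 3.58.1, R 4.3.3) on all 8 libraries with the model as the only term, and p-values were adjusted by Benjamini-Hochberg over 15875 genes. DESeq2 1.42.0 was an alternative. The script was tested on simulated counts. With 2 mice per model, the design leaves 4 residual degrees of freedom, to which edgeR adds information on the spread from all genes. A group at 0 counts was set to 3 counts per library for a fold bound, and against 1 to 3 counts a ratio of pooled levels was given with its exact 95% counting interval. Positions came from GENCODE M21 (GRCm38) and promoters from RefSeq (GRCm38.p6), which matched 57 of 61 genes, with Serpinb13, Serpinb1a, Tmprss11e and Klk1b7-ps unmatched. Library totals ran from 15748396 to 26943611 counts.

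The members, the gene lists and the tests were chosen with earlier results of these data known. Every member could be named, with values per library for members past the threshold in any comparison, those at a mean of 10 CPM or more in a model, and those over 4-fold apart between replicates at that level. Other genes named come from the pathway and marker lists. Results on some engineered genes are not reported here.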

Additional observations from a re-analysis of the deposited data

How the results depend on the processing

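Against TPMCa and TPMR1, members were called higher throughout, except that Klk1b27 was lower in TPK without replicate 2 of TPMR1. Leaving out 1 library at a time gave 9 to 23 members for TPM against TPMCa and TPMR1 (25 in all), 7 to 16 for TPK against them (17), 0 to 0 for TPK against TPM (0) and 0 to 5 for TPMR1 against TPMCa (0). In the first 2 comparisons, the share of all genes called also changed with the library left out, as given above. The Holm adjustment gave 2 and 1 members in these comparisons, where 0.277% and 0.321% of all genes were called. The study's criteria gave 31, 26, 10 and 5 members in the 4 comparisons (the 10 all lower, the 5 as 2 higher and 3 lower), and DESeq2 gave 26, 25, 3 and 1, the 3 and the 1 lower. The 5 without replicate 2 of TPMR1 were all higher. DESeq2 also called 3116 of all genes for TPM and 4516 for TPK, against 1411 and 2287 by edgeR. Other size factors, filters, a fit on the compared models alone and TPMCa and TPMR1 as 1 group gave 19 to 26 members for TPM and 14 to 20 for TPK. Under these, 5.77 to 9.33% of all genes were called for TPM and 9.39 to 15.3% for TPK. Over all tested genes, deviations of same-numbered libraries correlated at -0.069 to -0.0082, which cannot exclude a pairing limited to some genes. Members over 4-fold apart between replicates at 10 CPM or more were mostly higher in replicate 1. They were so in 16 of 18 cases in TPM, 5 of 5 in TPK, 6 of 7 in TPMR1 and 0 of 1 in TPMCa. The replicate block gave 20, 16, 0 and 0 members, where 6.54%, 10.5%, 0% and 0% of all genes were called. Under it Klk5, Serpinb10, Serpinb3c, Serpinb7 and Serpinb9f were not called in TPM, nor Serpinb7 in TPK. Alternatives chosen after seeing the data set TPM against TPMCa alone (9 members, 3.48% of all genes) or TPMR1 alone (15, 5.58%). They also set TPK against TPMCa alone (7, 6.03%) or TPMR1 alone (12, 10.3%). The causes of these shifts were not tested. With floors of 0.116 to 0.198 CPM, levels below these are not told apart from 0.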
